A study of Mus musculus with 12 samples.

Results

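The Smad family was followed through Bach1 silencing and the first 2 days of muscle differentiation in C2C12 cells. All entries of the deposited table whose gene symbol was Smad1, Smad2, Smad3, Smad4, Smad5, Smad6, Smad7 or Smad9 were taken, which gave 16 array probes for 8 genes out of 56605 probes in all. C2C12 is an established myoblast line from mice of the C3H strain that stops dividing, expresses muscle genes and fuses when serum is lowered. Cells were transfected with siControl, a negative control siRNA, or with siBach1-2, an siRNA against Bach1, and RNA was taken at day 0, before differentiation was induced with horse serum, or at day 2 after it. Each of the 4 conditions had 3 replicates and each RNA, carrying the dye Cyanine 3, went onto an array of its own. The groups were therefore siControl at day 0, siBach1-2 at day 0, siControl at day 2 and siBach1-2 at day 2, all of the same line and all transfected, with no untransfected cells and a single siRNA against Bach1 on the arrays. The labels do not say whether the replicates were separate cultures, so the p-values measure only the spread between these samples.

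Smad proteins carry signals of the TGF-β superfamily from the cell surface to the nucleus. Ligand-bound receptors phosphorylate the receptor-regulated Smads, of which Smad2 and Smad3 serve TGF-β, activin and myostatin, and Smad1, Smad5 and Smad9 serve bone morphogenetic proteins (BMPs). Smad4 is the common partner with which they enter the nucleus and bind DNA, and Smad6 and Smad7 are inhibitory members that act on receptors and compete for partners. In muscle precursors, TGF-β and myostatin signalling through Smad3 is known to hold back the action of MyoD and differentiation, and BMP signalling turns C2C12 cells away from the muscle fate. The Smads are regulated largely by phosphorylation and location, which RNA levels do not show. Bach1 is a haem-binding repressor that pairs with small Maf proteins at antioxidant response elements, and the study singled out Smad3 from these same arrays, so the day 2 values of Smad3 are given as a description beside those of the other members.

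The sequence upstream of a gene was available from RefSeq (GRCm38.p6) for 5 of the 8 genes. Each promoter window ran from 250 bases before to 50 bases after the annotated start. Those of 3 genes are shown because the results below turn on Smad3 and Smad5, and because Smad6 alone held the core of the antioxidant response element, TGACNNNGC. Each is read 5′ to 3′ on the strand of its gene, and capitals mark matches on either strand to TGACNNNGC, to TGAGTCA (the core shared by AP-1 and Maf proteins), to CAGACA (a Smad-binding element) or to GGCGCC (a GC-rich Smad element). None of the matches in these windows overlapped another.
Smad3, chr9:63757945-63758244, minus strand: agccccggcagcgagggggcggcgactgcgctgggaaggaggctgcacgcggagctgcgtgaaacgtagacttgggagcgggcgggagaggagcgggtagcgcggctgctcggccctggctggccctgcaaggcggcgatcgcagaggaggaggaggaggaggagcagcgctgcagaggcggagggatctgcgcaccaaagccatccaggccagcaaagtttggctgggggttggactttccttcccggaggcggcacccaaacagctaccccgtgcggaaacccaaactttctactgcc
Smad5, chr13:56702760-56703059, plus strand: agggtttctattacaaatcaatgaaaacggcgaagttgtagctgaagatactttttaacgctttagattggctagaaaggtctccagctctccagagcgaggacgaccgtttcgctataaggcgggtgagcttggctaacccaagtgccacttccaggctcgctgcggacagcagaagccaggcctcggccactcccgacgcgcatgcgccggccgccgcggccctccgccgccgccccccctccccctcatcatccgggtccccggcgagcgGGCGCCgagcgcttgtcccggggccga
Smad6, chr9:64022010-64022309, minus strand: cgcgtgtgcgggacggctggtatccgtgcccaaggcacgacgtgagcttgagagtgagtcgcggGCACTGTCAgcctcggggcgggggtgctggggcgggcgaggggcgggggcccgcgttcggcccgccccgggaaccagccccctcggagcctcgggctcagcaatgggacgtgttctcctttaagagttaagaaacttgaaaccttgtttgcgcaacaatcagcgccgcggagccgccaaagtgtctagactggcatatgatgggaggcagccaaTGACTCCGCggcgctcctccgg
The Smad3 window held none of the 4 motifs. The Smad5 window held 1 GGCGCC, as did an overlapping Smad5 window, while the last Smad5 window, further downstream, and the Smad1 window held no match. The Smad9 window held 1 GGCGCC. The Smad6 window held 2 matches to TGACNNNGC, the first of them on the strand opposite the gene. Of 32851 promoter windows in the table, 12.39% held TGACNNNGC, 5.2% TGAGTCA, 21.04% CAGACA and 11.87% GGCGCC. These matches describe letters and not binding.

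All values below are log2 processed signals minus the 75th percentile of their array, where 0 is the signal of the probe at that percentile and 1 unit is a 2-fold difference. Values of different probes cannot be set against each other, because each probe has its own brightness. The 75th percentile signal was between 325.52 and 534.39 over the 12 arrays, no spot was saturated, and 47.56% to 58.85% of probes were well above background by the scanner's own rule. Replicates 1 and 2 were on the first slide and replicate 3 on the second, and all arrays of a condition lay in 1 column of the slides, so position and condition cannot be told apart. The brightest Bach1 probe, at 1.69 ± 0.12 (SD, n = 3) in the day 0 control, stood at -0.09 ± 0.23 after silencing, and the day 2 values were 2.56 ± 0.01 and 0.59 ± 0.05. That for Hmox1, the haem oxygenase that Bach1 represses, was higher in siBach1-2 cells by 3.30 at day 0 and 3.12 at day 2. The summed signal of 7 muscle differentiation markers, all above background on all 12 arrays, was between 51.2 and 75.8 times the 75th percentile at day 0. At day 2 it was 1710 to 1820 in siControl and 1110 to 1300 in siBach1-2 cells, and the part of this gap in any Smad value at day 2 was not tested. Of 6 myoblast markers, limma called Cdh15 (0.45, adjusted p = 0.0051), Cdh2 (0.82, 0.0043) and Ncam1 (0.3, 0.03) higher in siBach1-2 cells at day 0. It called Myod1 lower at day 2 (-0.48, 0.036). Des was called at neither day and Myf5 was not tested. Among markers of other cell types, 3 of 5 haematopoietic genes (Ptprc, Cd68 and Cd3e) were above background on all 12 arrays, with Adgre1 at 0 of 12. Endothelial genes above background on all arrays of a condition were 0 or 1 of 4, and epithelial genes 1 or 2 of 4. Cdh5, Tie1, Kdr and Epcam were at 0 of 12. The summed signal of the haematopoietic genes ranged from 5.54 to 7.32 at day 0 and from 3.57 to 5.86 at day 2, and that of the endothelial genes from 0.0854 to 0.146. That of the epithelial genes was 4.50 to 5.87 in siControl and 5.12 to 8.93 in siBach1-2 cells at day 0, and 0.729 to 1.15 and 1.90 to 3.07 at day 2, when Krt14, a keratin, was higher in siBach1-2 cells by 1.5 (adjusted p = 0.0076). At day 0 limma called Cd68 lower in siBach1-2 cells by 0.48 (adjusted p = 0.018). Cdh1 was called higher at day 0 (adjusted p = 0.0097) but was above background on only 6 of 12 arrays, and no fold is given. The part of these genes in the Smad values was not tested.

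Of the 16 Smad probes, 14 from 7 genes cleared background on the full set of 3 arrays in 1 or more conditions and were tested with the 29664 probes that met this limit. The Smad9 probe and 1 of the 2 Smad1 probes were too dim. Few of them passed the test on Bach1 silencing. At day 0 the test called 2 Smad probes lower, both of Smad5, and 0 higher, when 8.32% of all tested probes were called lower and 8.8% higher. The day 2 test called 1 probe higher, of Smad3, and 0 lower, against 5.75% higher and 6.26% lower over all probes. As shares of the 14 Smad probes these were 14.3% lower at day 0 and 7.14% higher at day 2. A call means a Benjamini-Hochberg adjusted p under 0.05 in limma, in a fit without a block for replicate or slide unless a block is named. At each day 4 Smad probes had an unadjusted p under 0.05, and the methods' t-test with Benjamini-Hochberg adjustment called 1 at day 0 and 0 at day 2. The median log2 change of the 14 probes was -0.02 at day 0 and 0.10 at day 2, against 0.09 and -0.01 over all tested probes. Differentiation moved more of them, as it did among all tested probes. From day 0 to day 2, 3 Smad probes rose and 5 fell in siControl cells, where 24.6% of all probes were called higher and 28.7% lower, and 4 rose and 3 fell in siBach1-2 cells, where 23.8% were higher and 32.3% lower. As shares of the 14 Smad probes these counts were 21.4% and 35.7% in siControl and 28.6% and 21.4% in siBach1-2 cells. The falls for each siRNA include the dim Smad7 probe A_55_P2741400, which was only partly measured at day 2. The median change of the Smad probes over the 2 days was -0.13 in siControl and -0.16 in siBach1-2 cells, against 0.00 and -0.07 over all probes. With the replicate number as a block, 4 Smad probes were called at day 0 (1 higher, 3 lower) and 2 at day 2 (both higher). The shares of all probes above are from the fit without a block and do not apply to these counts.

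**Figure D1:**
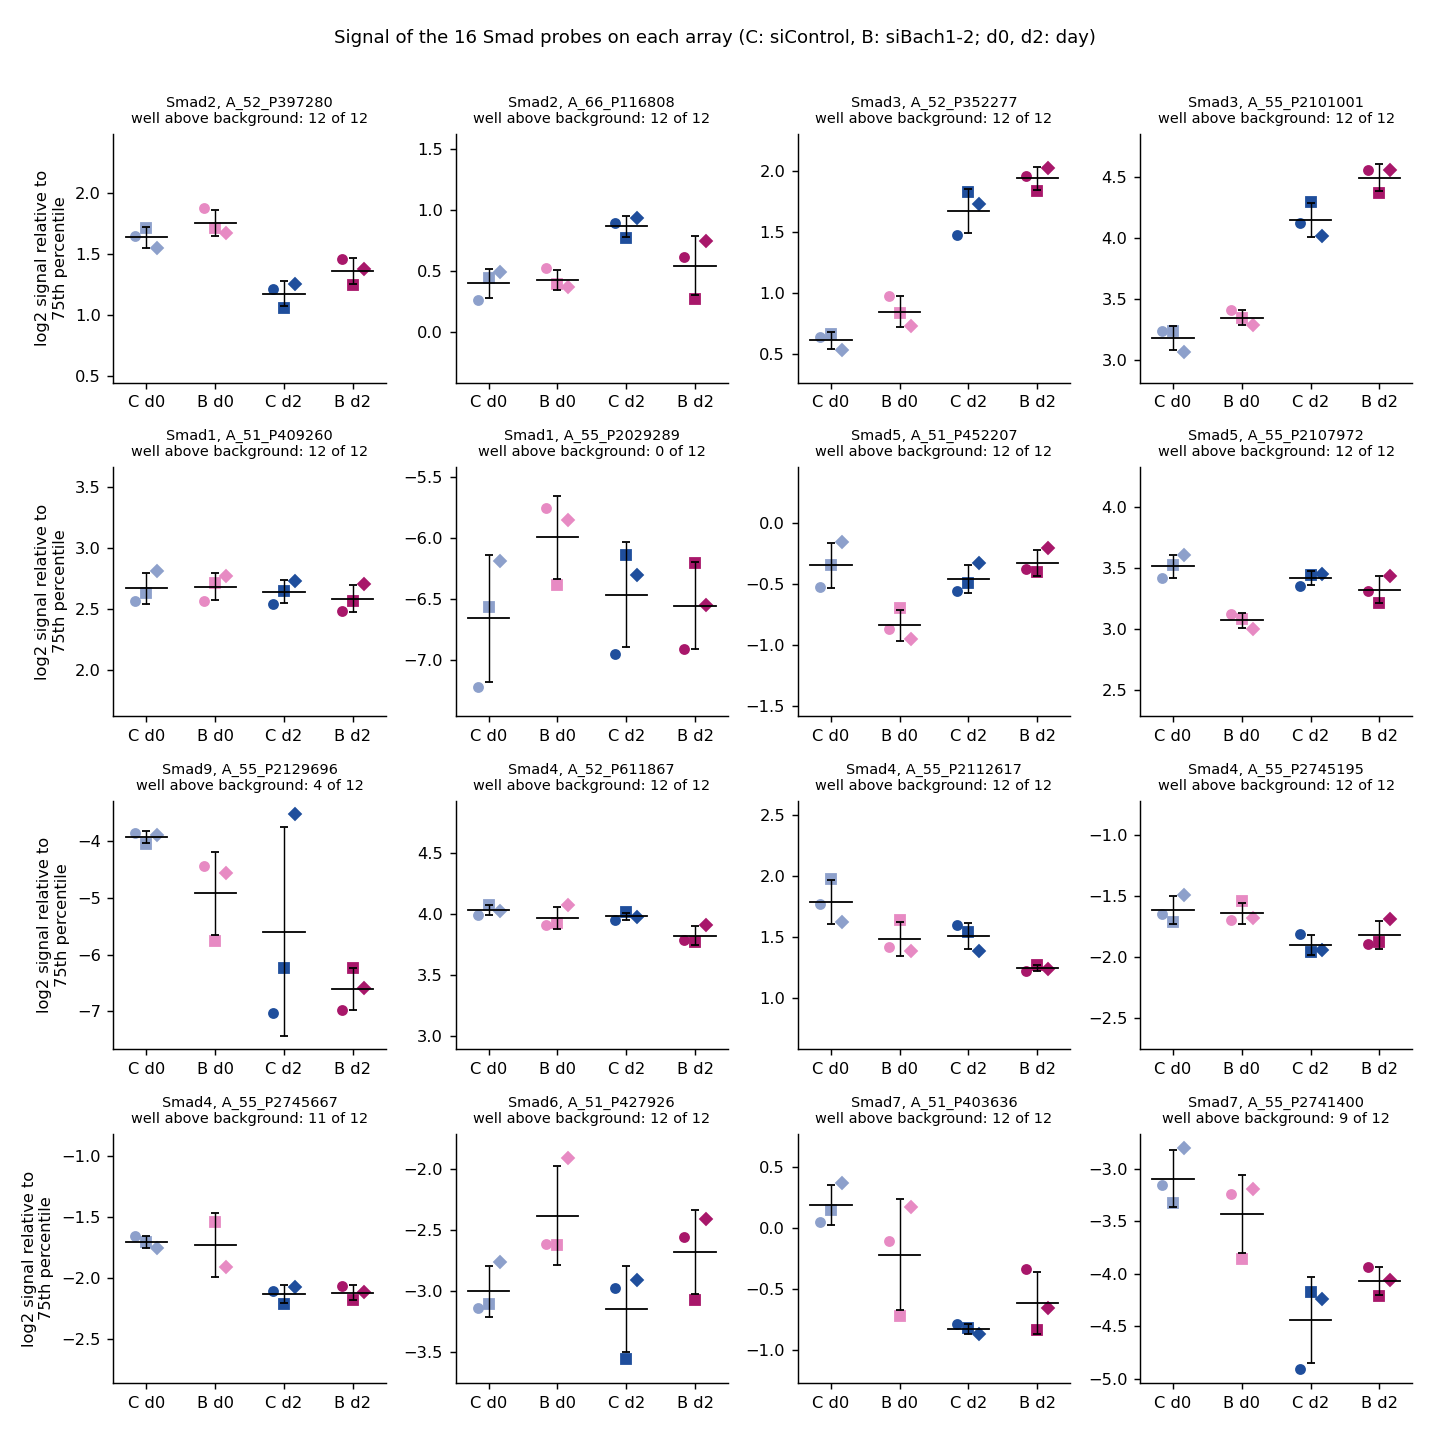
Signal of each of the 16 Smad probes on each of the 12 arrays, in log2 units relative to the 75th percentile of the array. Circles, squares and diamonds are replicates 1, 2 and 3, the horizontal line is the mean and the bar 1 SD; each panel has its own range. Both Smad3 probes stand higher at day 2 than at day 0, both Smad5 probes are lowest in siBach1-2 cells at day 0, and the Smad9 probe was well above background on 4 arrays.

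Smad3 stood out among the members by its rise during differentiation. In siControl cells at day 0 the probe A_55_P2101001 read 3.24, 3.24 and 3.07 in replicates 1, 2 and 3, the order used throughout. The day 2 readings were 4.13, 4.30 and 4.02. In siBach1-2 cells the values were 3.41, 3.35 and 3.29 at day 0 and 4.56, 4.37 and 4.56 at day 2. The days did not overlap for either siRNA, and at each day all 3 siBach1-2 arrays lay above all 3 siControl arrays. The second probe, A_52_P352277, read 0.64, 0.67 and 0.54 in siControl cells at day 0 and 1.48, 1.83 and 1.73 at day 2. In siBach1-2 cells it read 0.98, 0.84 and 0.73 at day 0 and 1.96, 1.84 and 2.03 at day 2. It kept the same order of the 4 conditions, and its groups did not overlap at either day, although the highest siControl value and the lowest siBach1-2 value at day 2 differed by little.

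From day 0 to day 2, Smad3 rose by 0.97 (SE 0.10, adjusted p = 1.6e-05) in siControl and by 1.15 (SE 0.10, adjusted p = 4.7e-06) in siBach1-2 cells at A_55_P2101001. The changes at A_52_P352277 were 1.06 (SE 0.11) and 1.09 (SE 0.11). These rises were between 1.96-fold and 2.22-fold, and their p stayed under 0.05 in every alternative fit. With a fold change of at least 2 required as well, the rise of A_55_P2101001 in siControl cells, at 1.96-fold, was not called. About 10.1% of tested probes rose more than A_52_P352277 in siControl cells. The rise in siBach1-2 cells exceeded that in siControl cells by 0.18 (95% interval -0.13 to 0.49) and by 0.03 (-0.31 to 0.37), differences that did not pass the test.

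The silencing effect on Smad3 was small beside it. At day 2 it was 0.35 (SE 0.10, 95% interval 0.13 to 0.57, adjusted p = 0.045 in limma), or 1.28-fold, at A_55_P2101001 and 0.26 (SE 0.11, 0.02 to 0.50, adjusted p = 0.15), or 1.20-fold, at A_52_P352277. At day 0 it was 0.17 (-0.05 to 0.39) and 0.23 (-0.01 to 0.47), neither past the test. The single call at day 2 was lost without the filter on dim probes (adjusted p = 0.19), with only the 6 arrays of day 2 in the fit (0.12), on the first slide alone (0.17), by the methods' t-test with adjustment (0.16), and in 8 of 12 fits that left out 1 array, those without replicate 1 of any condition, without replicate 2 of either condition at day 0, or without replicate 3 of either condition at day 2 (0.059 to 0.15). With the slide as a block its adjusted p was 0.021, and the difference was 0.25 on the first slide and 0.55 on the second. Of all tested probes, 14.6% rose more than A_55_P2101001 and 20.1% more than A_52_P352277 at day 2.

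Smad2, the other TGF-β and activin Smad, had 2 probes that the array design assigns to different transcripts, and these went opposite ways during differentiation. A_52_P397280 read 1.65, 1.72 and 1.55 in siControl cells at day 0 and 1.22, 1.06 and 1.26 at day 2. In siBach1-2 cells it read 1.88, 1.72 and 1.68 at day 0 and 1.46, 1.25 and 1.38 at day 2. The day 2 arrays lay below the day 0 arrays for both siRNAs, and the probe fell by 0.46 (SE 0.09, adjusted p = 0.0019) and by 0.39 (SE 0.09, adjusted p = 0.0047). A_66_P116808 read 0.26, 0.44 and 0.49 in siControl cells at day 0 and 0.89, 0.77 and 0.93 at day 2, a rise of 0.46 (SE 0.12, adjusted p = 0.0083). In siBach1-2 cells it read 0.52, 0.39 and 0.37 at day 0 and 0.61, 0.27 and 0.74 at day 2, which overlapped, with a change of 0.12 (SE 0.12, adjusted p = 0.44). Silencing changed neither probe past the test. At day 2 the effects were 0.19 (-0.02 to 0.40) at A_52_P397280 and -0.32 (-0.59 to -0.05, adjusted p = 0.12) at A_66_P116808, where the groups did not overlap, and the mean of both probes moved by -0.07. The 2 probes gave no single direction for Smad2.

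Among the BMP Smads, Smad5 was lower on silencing, and passed the test at day 0 and not at day 2. The probe A_55_P2107972 read 3.41, 3.52 and 3.60 in siControl cells at day 0 and 3.12, 3.08 and 3.0 in siBach1-2 cells, with a gap between the groups. The readings at day 2 were 3.35, 3.44 and 3.45 in siControl and 3.31, 3.21 and 3.43 in siBach1-2 cells, which overlapped. The other Smad5 probe, A_51_P452207, read -0.53, -0.35 and -0.16 in siControl cells at day 0 and -0.87, -0.70 and -0.95 in siBach1-2 cells. Its day 2 readings were -0.56, -0.49 and -0.33 and -0.38, -0.40 and -0.21, and the groups overlapped. The lowest values of both probes were those of siBach1-2 cells at day 0, and the other 3 conditions lay close together.

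At day 0 the fall was 0.45 on the log2 scale (SE 0.08, 95% interval -0.63 to -0.26, adjusted p = 0.0055), or 1.36-fold, at A_55_P2107972, and it held in all 12 fits that left out 1 array. At A_51_P452207 Smad5 fell by 0.50 (SE 0.12, -0.76 to -0.24, adjusted p = 0.016), or 1.41-fold. On the first slide the changes were -0.37 and -0.35 and on the second -0.60 and -0.79 for A_55_P2107972 and A_51_P452207, and with the slide as a block the adjusted p was 0.0028 and 0.0073. The call at A_51_P452207 was lost without siControl replicate 2, siControl replicate 3 or siBach1-2 replicate 3 of day 0 (adjusted p 0.0503 to 0.057), without the filter (0.073) with only the day 0 arrays (0.058), on the first slide alone (0.071) and by the methods' t-test with adjustment (0.1). At day 2 the effects were -0.10 (-0.29 to 0.09) and 0.12 (-0.14 to 0.38). The difference between the effects at day 2 and day 0 was 0.35 (SE 0.12, adjusted p = 0.13) and 0.62 (SE 0.16, adjusted p = 0.061), so that the silencing effect was not shown to differ between the days; with the replicate block the latter had an adjusted p of 0.029. In siBach1-2 cells Smad5 rose from day 0 to day 2 by 0.25 (SE 0.08, adjusted p = 0.028) and by 0.51 (SE 0.12, adjusted p = 0.0037), and in siControl cells the changes were -0.10 and -0.12. The smaller rise lost its call without the filter (0.12), with normexp (0.095), with only the siBach1-2 arrays (0.073), on the first slide alone (0.15), by the methods' t-test with adjustment (0.0512) and without siBach1-2 replicate 2 or 3 of day 0 or replicate 1 or 3 of day 2 (0.055 to 0.097).

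**Figure D2:**
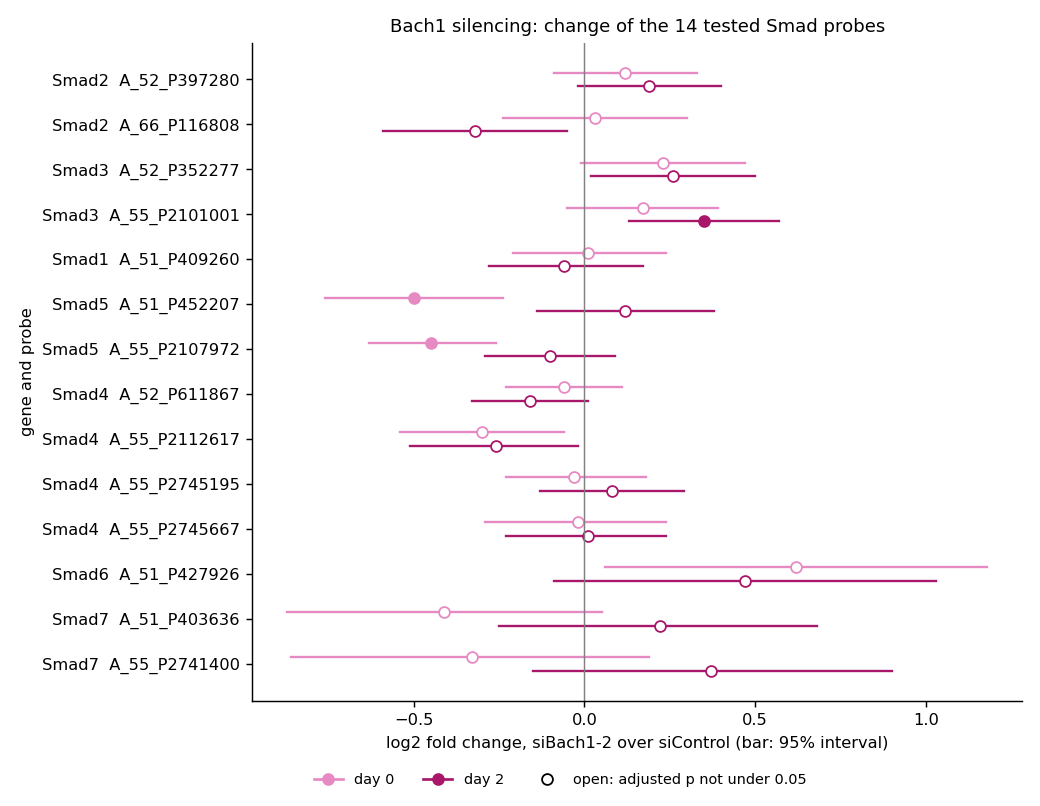
Log2 fold change of siBach1-2 over siControl at day 0 (light) and day 2 (dark) for the 14 tested Smad probes, with 95% intervals from the limma fit. Filled points passed the test, which were both Smad5 probes at day 0 (-0.45 and -0.50) and 1 Smad3 probe at day 2 (0.35).

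Smad1 gave nearly the same signal on every array. The probe A_51_P409260 read 2.56, 2.63 and 2.81 in siControl and 2.56, 2.71 and 2.77 in siBach1-2 cells at day 0. At day 2 the values were 2.54, 2.64 and 2.73 and 2.48, 2.56 and 2.70. The groups overlapped throughout, and the silencing effects were 0.01 (-0.21 to 0.24) at day 0 and -0.06 (-0.28 to 0.17) at day 2. The other Smad1 probe, A_55_P2029289, was not well above background on any array. Smad9 was at the limit of detection. Its probe, A_55_P2129696, was well above background on 2 siControl arrays and 1 siBach1-2 array at day 0, and on 1 and 0 arrays at day 2. It read -3.86, -4.05 and -3.89 in siControl and -4.44, -5.76 and -4.57 in siBach1-2 cells at day 0. Readings at day 2 were -7.03, -6.23 and -3.53 in siControl and -6.98, -6.24 and -6.58 in siBach1-2 cells. The third siControl array at day 2 was far above the other two, no group was measured in full, and no fold is given.

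Smad4, the common Smad, was measured by 4 probes that gave small or no changes. A_52_P611867 read 3.99, 4.07 and 4.02 in siControl and 3.91, 3.92 and 4.07 in siBach1-2 cells at day 0. The day 2 readings were 3.95, 4.01 and 3.97 and 3.78, 3.77 and 3.91, where all siBach1-2 arrays lay below all siControl arrays. Its silencing effect was -0.06 (-0.23 to 0.11) at day 0 and -0.16 (-0.33 to 0.01, adjusted p = 0.22) at day 2. A_55_P2112617 read 1.77, 1.98 and 1.62 in siControl and 1.42, 1.64 and 1.39 in siBach1-2 cells at day 0. Its values 2 days later were 1.60, 1.54 and 1.39 in siControl and 1.22, 1.27 and 1.24 in siBach1-2 cells. It was lower in siBach1-2 cells by similar amounts at the 2 days, -0.30 (SE 0.11, adjusted p = 0.086) and -0.26 (SE 0.11, adjusted p = 0.15). Day 0 passed the test with the replicate block (adjusted p = 0.029), the slide as a block (0.031) and normexp background correction (0.045). The dimmer A_55_P2745195 and A_55_P2745667 showed silencing effects between -0.03 and 0.08 at both days. They fell over the 2 days in siControl cells by 0.29 (SE 0.09, adjusted p = 0.025) and by 0.42 (SE 0.10, adjusted p = 0.007), and A_55_P2745667 fell by 0.39 (SE 0.12, adjusted p = 0.017) in siBach1-2 cells.

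Some limits touch those falls of Smad4. The spot of A_55_P2745667 on siBach1-2 replicate 1 at day 0 was marked as an outlier by the scanner and left out, so that group had 2 arrays, and the deposited normalized values, which keep the spot, give a silencing effect of 1.53 (adjusted p = 0.33) at day 0 for this probe. The call of A_55_P2745667 in siBach1-2 cells was lost without siBach1-2 replicate 2 at day 0 (-0.21, adjusted p = 0.17) or at day 2 (adjusted p = 0.052), without the filter (0.07), with only the siBach1-2 arrays (0.077) and by the methods' t-test with and without adjustment (0.13 and 0.076). With the deposited values neither fall of this probe was called (0.12 and, in siControl cells, 0.74). The call at A_55_P2745195 was lost without siControl replicate 3 at either day or replicate 2 at day 2 (0.066 to 0.093), with normexp background correction (0.23), without the filter (0.1), with only the siControl arrays (0.055), on the first slide alone (0.11), with the robust prior (0.064) and by the methods' t-test with adjustment (0.054). With the replicate block A_55_P2112617 also fell from day 0 to day 2, by 0.28 (adjusted p = 0.016) in siControl and by 0.24 (adjusted p = 0.03) in siBach1-2 cells. The slide block called both falls too (0.019 and 0.035). The fall in siControl cells was also called with normexp (0.038), the robust prior (0.036) and the filter on all 12 arrays (0.043). The brightest probe, A_52_P611867, changed by -0.05 (-0.22 to 0.12) and -0.15 (-0.32 to 0.02) over the same days.

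Of the inhibitory Smads, Smad7 fell during differentiation and Smad6 passed the test in no comparison unless a block was fitted. The Smad7 probe A_51_P403636 read 0.05, 0.15 and 0.37 in siControl cells at day 0 and -0.79, -0.82 and -0.87 at day 2. In siBach1-2 cells it read -0.11, -0.72 and 0.17 at day 0 and -0.34, -0.84 and -0.66 at day 2. The siControl groups were far apart and the siBach1-2 groups overlapped, with replicate 2 low at both days. Smad7 fell by 1.02 (SE 0.21, 95% interval -1.48 to -0.56, adjusted p = 0.0018), or 2.03-fold, in siControl cells and changed by -0.39 (-0.85 to 0.07, adjusted p = 0.13) in siBach1-2 cells. Without siBach1-2 replicate 2 at day 0 the latter was -0.64 (adjusted p = 0.0078). The dimmer probe A_55_P2741400 read -3.16, -3.33 and -2.80 in siControl cells at day 0 and -4.91, -4.17 and -4.24 at day 2, where 1 of 3 arrays was well above background. In siBach1-2 cells it read -3.24, -3.86 and -3.19 at day 0 and -3.94, -4.21 and -4.06 at day 2, where 2 of 3 arrays were. The probe was tested through its day 0 groups and day 2 was only partly measured, so the fitted changes of -1.34 (SE 0.24, adjusted p = 0.00069) and -0.64 (SE 0.24, adjusted p = 0.039) are not sizes of a fall between measured levels. With normexp background correction both changes of this probe were -0.28 and neither passed the test (adjusted p 0.086 and 0.095), and the smaller one lost its call without the filter (0.095), on the first slide alone (0.17), with the robust prior (0.063), by the methods' t-test with adjustment (0.088) and in 6 of 12 fits that left out 1 array, any of the day 0 or day 2 siBach1-2 arrays other than replicate 2 at day 0, or siControl replicate 1 at day 0 (0.052 to 0.12).

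Silencing moved Smad7 by -0.41 (-0.87 to 0.05) and -0.33 (-0.86 to 0.19) at day 0 and by 0.22 (-0.25 to 0.68) and 0.37 (-0.15 to 0.90) at day 2 for A_51_P403636 and A_55_P2741400. All 4 values missed the test, and so did the differences between days of 0.63 (SE 0.29) and 0.70 (SE 0.33), both with an adjusted p of 0.25. Smad6 had the largest silencing values of the family. Its probe, A_51_P427926, read -3.14, -3.10 and -2.76 in siControl and -2.61, -2.62 and -1.91 in siBach1-2 cells at day 0, and the groups did not overlap. Day 2 readings were -2.97, -3.55 and -2.91 and -2.55, -3.07 and -2.41, and the groups overlapped. The effects were 0.62 (SE 0.25, 95% interval 0.06 to 1.18, adjusted p = 0.12) and 0.47 (SE 0.25, -0.09 to 1.03, adjusted p = 0.27). Within each replicate number Smad6 was higher in siBach1-2 cells at both days, and with the replicate block both effects passed the test (adjusted p = 0.015 at day 0 and 0.0498 at day 2). It was 0.51 on the first slide and 0.85 on the second at day 0, and 0.45 and 0.51 at day 2. The Smad6 change over the 2 days was -0.14 in siControl and -0.29 in siBach1-2 cells.

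**Figure D3:**
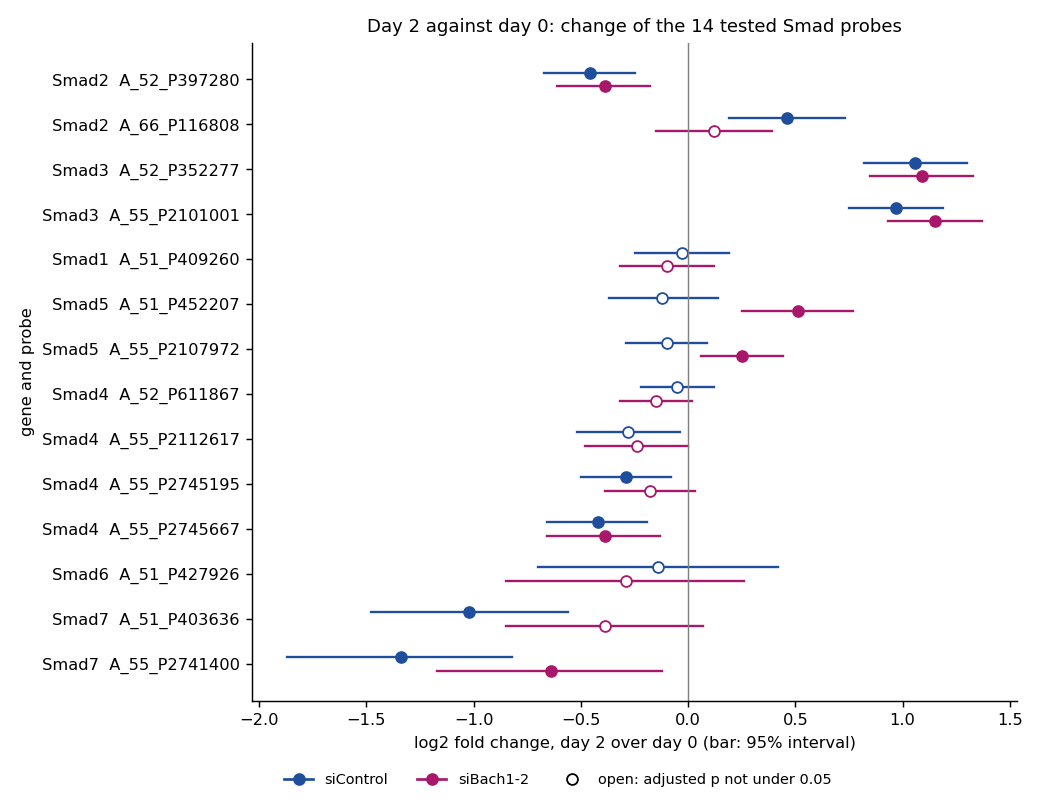
Log2 fold change of day 2 over day 0 in siControl cells (blue) and siBach1-2 cells (red) for the 14 tested Smad probes, with 95% intervals from the limma fit. Filled points passed the test. Both Smad3 probes lie between 0.97 and 1.15, and Smad7 A_51_P403636 lies at -1.02 in siControl and -0.39 in siBach1-2 cells. Smad7 A_55_P2741400 was only partly measured at day 2, so its points are not sizes of a fall.

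Put beside the other members, the Smad3 value on silencing was above their mean at both days and below that of Smad6. With the probes of each gene averaged, the Smad3 effect was 0.20 at day 0 and 0.31 at day 2, and the mean effect of the 6 other tested Smads was -0.04 and 0.10. The signal of Smad3 minus the mean of the other Smads, each centred on its own mean over arrays, was -0.63, -0.68 and -0.98 in siControl cells at day 0 and -0.40, -0.44 and -0.72 in siBach1-2 cells. The day 2 values were 0.45, 0.75 and 0.41 in siControl and 0.75, 0.78 and 0.71 in siBach1-2 cells. The groups overlapped at both days, while within each replicate number the siBach1-2 array was the higher one, by 0.23, 0.24 and 0.26 at day 0 and by 0.30, 0.03 and 0.31 at day 2. The differences of 0.24 and 0.21 each had a two-sided exact permutation p of 0.3 (adjusted over the 2 tests, 0.3), where 3 arrays against 3 cannot give less than 0.1. Exact sign flips within the replicate numbers, added after the values were seen, gave a two-sided p of 0.25 at each day, the smallest that 3 pairs allow, so neither test could reach 0.05. The value at day 2 is not independent of the choice of Smad3. In order of the gene means, the silencing effect at day 0 ran from Smad5 (-0.47) and Smad7 (-0.37) through Smad4 (-0.12), Smad1 (0.01) and Smad2 (0.07) to Smad3 (0.20) and Smad6 (0.62). At day 2 it ran from Smad4 (-0.08), Smad2 (-0.07) and Smad1 (-0.06) through Smad5 (0.01) to Smad7 (0.29), Smad3 (0.31) and Smad6 (0.47). The 95% interval of each gene overlapped that of its neighbour in both orders, which sorting by effect makes likely. Members further apart did not all overlap. At day 0 the Smad5 interval (-0.68 to -0.26) lay below those of Smad1, Smad2, Smad3 and Smad6. That of Smad4 (-0.28 to 0.04) lay below that of Smad6 (0.06 to 1.18). At day 2 only Smad4 (-0.24 to 0.08) and Smad3 (0.10 to 0.52) were apart. Differences between single members were not tested. No Smad probe passed the test of the difference between the days, where 2.39% of all probes were called higher and 2.2% lower; 2 Smad probes, both of Smad5, had an unadjusted p under 0.05, and the replicate block called 1. With quantile normalization 64.8% of the calls over all probes in that comparison were higher, against 52.0%.

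The genes whose signal over the 12 arrays lay nearest to that of Smad3 were Hivep2, App, Rmdn1, Zbtb4 and Serf2. Likeness was the root mean square difference between log2 values, each centred on its own mean over the arrays, among 21621 probes that were above background on all 12 arrays. It was 0.078 for Hivep2, which codes for a zinc finger protein, 0.083 for App, the amyloid precursor protein, 0.085 for Rmdn1, 0.089 for Zbtb4 and 0.096 for Serf2. The centred Smad3 means were -0.63, -0.43, 0.38 and 0.69 in siControl day 0, siBach1-2 day 0, siControl day 2 and siBach1-2 day 2, and those of Hivep2 were -0.60, -0.45, 0.38 and 0.66. No other Smad was among them.

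Genes that act with the Smads were described from 5 lists with 75 genes on the array, of which 68 were tested, each by its brightest tested probe. At day 0, 8 were higher and 7 lower in siBach1-2 cells (11.8% and 10.3%, against 8.8% and 8.32% of all probes), and at day 2, 2 were higher and 6 lower (2.94% and 8.82%, against 5.75% and 6.26%). Their median change was 0.10 at day 0 and -0.07 at day 2, against 0.09 and -0.01 over all probes. With the replicate block 24 of these genes were called at day 0 and 15 at day 2. The shares of all probes above are from the fit without a block, so these counts cannot be set beside them. From day 0 to day 2, 23 rose and 22 fell in siControl cells (33.8% and 32.4%, against 24.6% and 28.7% of all probes). In siBach1-2 cells 20 rose and 27 fell (29.4% and 39.7%, against 23.8% and 32.3%). The rises for each siRNA include Amhr2 and Tgfbi. These 2 entered the test only through their day 2 groups, where their signal was higher.

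Of the 10 tested receptors, 2 were called lower and 0 higher at each day. The 20% called lower stood against 8.32% of all probes at day 0 and 6.26% at day 2. Tgfbr1, the type I TGF-β receptor whose kinase phosphorylates Smad2 and Smad3, fell on silencing by 1.16 at day 0 (SE 0.09, adjusted p = 3.6e-05), from 0.92 ± 0.08 to -0.24 ± 0.08 (SD, n = 3). It fell by 0.40 at day 2 (SE 0.09, adjusted p = 0.021), from 0.68 ± 0.06 to 0.28 ± 0.14. A second Tgfbr1 probe moved the same way at both days and did not pass the test. Amhr2, the receptor for anti-Müllerian hormone, fell by 0.70 at day 2 (adjusted p = 0.023), when its other probe did not pass. At day 0 Amhr2 was well above background on 2 of 3 siControl arrays and on no siBach1-2 array, and a second probe went the other way. Amhr2 entered the test through its day 2 groups. Its day 0 call (adjusted p = 0.0032 in limma) rests on partly unmeasured values, and no fold is given. The counts of receptors and listed genes called lower at day 0 include it. The other 8 tested receptors did not pass at either day by their brightest probe, though the second probe of Acvr2a, a type II activin receptor, was higher by 0.83 (adjusted p = 0.013) at day 0. During differentiation 6 of 10 tested receptors rose and 1 fell for each siRNA, when 24.6% and 23.8% of all probes rose and 28.7% and 32.3% fell. The 6 for each siRNA include Amhr2, which entered the test only through its day 2 groups, where its signal was higher. Of the 10 tested receptors, only Tgfbr1 passed the test of a difference between the siRNAs in this change (0.77, adjusted p = 0.015 in limma). Tgfbr1 fell by 0.24 in siControl cells (adjusted p = 0.047 in limma), where its second probe did not go the same way. It rose by 0.52 in siBach1-2 cells (adjusted p = 0.00072). By their brightest probes, Acvr1b was called higher only in siControl and Acvr1 lower only in siBach1-2 cells. Neither passed the test of a difference between the siRNAs (-0.27 and -0.15, adjusted p = 0.51 and 0.7 in limma). Among those that rose for both siRNAs were Tgfbr2, the type II TGF-β receptor (0.95 in siControl and 0.93 in siBach1-2 cells), and Bmpr2, the type II BMP receptor (0.67 and 0.84). The fitted rise of Amhr2 was 3.81 in siControl cells, where 2 of 3 arrays were above background at day 0, and it was at least 9.69-fold higher in siBach1-2 cells at day 2, where it was not well above background at day 0.

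Among the proteins that act on Smads, Nedd4l, a ubiquitin ligase that marks activated Smad2 and Smad3 for destruction, was higher by 0.56 at day 0 (SE 0.09, adjusted p = 0.0025) and by 0.46 at day 2 (SE 0.09, adjusted p = 0.012). Its 2 other probes did not pass. Usp15, a deubiquitinase of Smads, was higher by 0.31 at day 2 (adjusted p = 0.0499) at 1 of 8 probes, and Pmepa1, which keeps Smads from the receptor, was lower by 0.60 (SE 0.16, adjusted p = 0.032). The other 16 of 17 genes at day 0 and 14 at day 2 did not pass by their brightest probe. At day 0, 5.88% were called higher and 0% lower, against 8.8% and 8.32% of all probes. At day 2, 11.8% were called higher and 5.88% lower, against 5.75% and 6.26%. A dimmer probe was called at day 0 for Smurf2 (0.48), Zfyve9 (0.36), Xpo4 (-0.45) and Ppm1a (-1.80), and at day 2 for Ppm1a (-0.66). Of the 10 tested corepressors, 1 fell at day 2 (10%, against 6.26% of all probes), when a dimmer probe of Ncor1 was also lower (-0.52, adjusted p = 0.026). At day 0, 2 rose and 1 fell (20% and 10%, against 8.8% and 8.32% of all probes). Hdac1, a histone deacetylase, rose by 1.02 at day 0 (SE 0.09, adjusted p = 8.7e-05) at 3 of 3 probes, and Ski, which binds Smad complexes and silences their targets, rose by 0.45 (SE 0.10, adjusted p = 0.011). Tgif2 fell by 0.49 at day 0 and Tgif1 by 0.37 at day 2, both homeodomain corepressors of Smads.

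Of 15 tested transcription partners, 20% were called higher and 6.67% lower at day 0, against 8.8% and 8.32% of all probes. Gata3 (0.86, adjusted p = 0.00054), Fos (0.63, adjusted p = 0.044) and Zeb1 (0.37, adjusted p = 0.043) rose at day 0, and Sp1 fell by 0.48 (adjusted p = 0.0011). Dimmer probes of Ep300 (1.53) and Runx1 (0.38) were higher too. At day 2 limma called 0 of the 15 by their brightest probe, with 5 at an unadjusted p under 0.05, 2 called with the replicate block and 0 by the methods' t-test with adjustment, while the dimmer Sp1 probe was lower by 0.34 (adjusted p = 0.016). Of 16 tested target genes, 0 rose and 2 fell at day 2 (0% and 12.5%, against 5.75% and 6.26% of all probes). At day 0, 2 rose and 3 fell (12.5% and 18.8%, against 8.8% and 8.32%). Ctgf, a matrix growth factor, fell by 1.49 (SE 0.32, adjusted p = 0.011), and Tnc, the matrix protein tenascin C, by 1.15 (SE 0.24, adjusted p = 0.0086). Hey1, a Notch and BMP target, rose by 0.78 (SE 0.13, adjusted p = 0.003) and Col1a2, a collagen chain, by 0.29 (adjusted p = 0.0493) at 1 of 3 probes, another of which was higher at day 2 (0.79, adjusted p = 0.045). At day 2 Klf10, an early TGF-β target, fell by 0.56 (SE 0.08, adjusted p = 0.002) and Cdkn1a, the cyclin-dependent kinase inhibitor p21, by 0.43 (SE 0.08, adjusted p = 0.01). The inhibitors of differentiation Id1, Id2 and Id3, targets of the BMP Smads, did not pass on silencing at either day and fell during differentiation, with changes of -1.73, -2.53 and -2.71 in siControl and -2.20, -3.47 and -2.69 in siBach1-2 cells. These genes answer to many factors besides Smads, whose part was not tested.

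**Figure D4:**
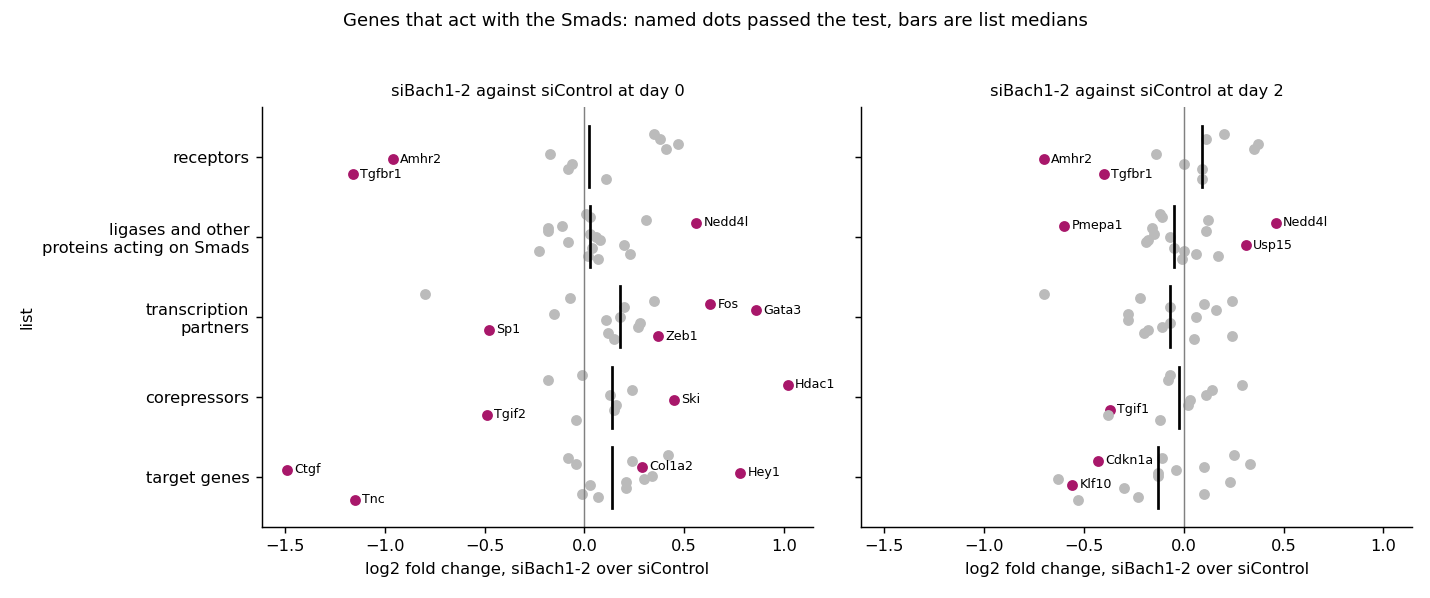
Log2 fold change of siBach1-2 over siControl at day 0 (left) and day 2 (right) for the tested genes of the 5 lists, 1 point per gene, with 1 target gene not drawn. Named magenta points passed the test and the black bars are the list medians, which lie between -0.13 and 0.18; the widest falls at day 0 are those of Ctgf (-1.49) and Tgfbr1 (-1.16).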

How the data were processed

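RNA of 12 C2C12 samples was hybridized to 1-colour Agilent SurePrint G3 mouse arrays, 3 for each of 4 conditions given by the sample labels. The authors scanned the arrays with Feature Extraction (version 9.1 in the submitters' processing notes, 10.7.3.1 in the file headers) and deposited for each array the processed signal, a background-subtracted intensity, with the raw median and background intensity and the flags of each spot. The authors also deposited a table of 56745 entries with raw signals and normalized log2 values, and the methods name GeneSpring. Set against the scanner values, the deposited log2 values are relative to the 75th percentile of each array and centred per probe. With both centred, they differed from those computed here by at most 0.00449 over 56553 probes. The flags (well above background, outlier, saturated) were used as deposited, and their values are other than signal.

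Control spots and outlier spots (76 to 110 per array) were removed. From the log2 processed signal, averaged over the spots of each probe, the 75th percentile of its array was taken off. Testing covered the 29664 of 56605 probes that the scanner placed well above background throughout the 3 arrays of some condition. The 4 conditions were fitted together in limma 3.58.1 (R 4.3.3), with 5 contrasts, and p-values were adjusted by Benjamini-Hochberg over all tested probes. The script was tested on simulated data. The Smad genes, the 5 gene lists and the markers were chosen with earlier results of these data known. The text names all Smad probes, all called genes of a list or, in the day comparisons, some of the 4 with the largest change in a direction, the 5 symbols nearest to Smad3, and Bach1, Hmox1 and the markers. Of the called genes, 1 target gene is not reported here by name and enters only the counts and medians of the lists. The study's methods name Student's t-test, which was run as an alternative. Residuals of the 18 array pairs sharing a replicate number in the labels correlated at 0.142 to 0.595, all above 0.1. Such arrays also share a slide. Arrays of different numbers on the first slide correlated at 0.1 to 0.265, and arrays on different slides at -0.443 to -0.24. The correlations therefore do not separate the replicate number from the slide. Calls are from the fit without a block unless another fit is named, and a block for either was run as an alternative. Alternatives were quantile normalization, normexp (offset 50) on the raw median intensity, the deposited log2 values, other filters, a block for the replicate or for the slide, a fit to only the arrays compared, a robust trended prior, a fold change of at least 2, the mean of a gene's probes, each array left out, the first slide alone and, added after the data were seen, sign flips within replicate numbers for Smad3 against the other Smads. The number of arrays limits the precision. Promoter windows are from RefSeq (GRCm38.p6). Python 3.11.15, pandas 2.3.3 and scipy 1.17.1 were used.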

Additional observations from a re-analysis of the deposited data

Results flagged for a closer look

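The silencing effect differed between the days for 6 genes that act with the Smads, by limma's test of the difference between the effects at day 2 and day 0, and for 0 Smad probes. Of 68 tested genes 1.47% were called higher and 7.35% lower, against 2.39% and 2.2% of all probes. The difference was 0.77 (SE 0.13, adjusted p = 0.015) for Tgfbr1, whose silencing effect was -1.16 at day 0 and -0.40 at day 2. It was -0.73 (SE 0.13, adjusted p = 0.018) for Hdac1, with 1.02 at day 0 and 0.29 at day 2. It was -0.69 (SE 0.15, adjusted p = 0.034) for Gata3, with 0.86 and 0.16. Hey1 had a difference of -0.91 (SE 0.19, adjusted p = 0.026), with effects of 0.78 and -0.13. For Klf10 the difference was -0.59 (SE 0.11, adjusted p = 0.019), with 0.03 and -0.56, and for Cdkn1a it was -0.67 (SE 0.12, adjusted p = 0.017), with 0.24 and -0.43. All 6 probes were well above background on 12 of 12 arrays.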

How the results depend on the processing

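Under all alternatives tried both Smad3 probes had positive silencing values at both days (0.06 to 0.46) and both Smad5 probes negative ones at day 0 (-0.59 to -0.35). Counts under the alternatives stand without the share of all probes called in the same fit. The count of Smad probes called on silencing was 2 at day 0 and 1 at day 2. At day 0 it was 4 with the replicate block and with the slide as a block, and 1 without the filter, with only the arrays of the comparison, with the methods' t-test after Benjamini-Hochberg adjustment and with the mean of the probes of a gene. Normexp added a call of Smad4 A_55_P2112617 at day 0 (-0.32, adjusted p = 0.045 in limma). At day 2 the count was 2 with the replicate block, 3 with the unadjusted methods' t-test, and 0 without the filter, with only the arrays compared, with the adjusted t-test and with gene means. The Smad3 probe A_55_P2101001 kept its 0.35 at day 2 and lost the call without the filter, with only the arrays compared and with the adjusted t-test, while A_52_P352277 (0.23 at day 0) was called by the unadjusted t-test. For the change over days, gene means gave 3 calls in siControl and 4 in siBach1-2 cells, and no filter and the adjusted t-test 4 each in siBach1-2 cells. The difference between days gave 1 Smad call with the replicate block, the slide block, the robust prior and the filter on all 12 arrays, and 2 with the unadjusted t-test. With a fold change of at least 2 the Smad counts were 0, 0, 3 and 2 for silencing at day 0 and day 2 and for the change over days in siControl and siBach1-2 cells, and the counts of the listed genes were 4, 0, 17 and 17. The 3 in siControl cells include Smad7 A_55_P2741400, which was only partly measured at day 2. The 17 listed genes for each siRNA include Amhr2 and Tgfbi, which were not measured in full at day 0.

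The listed genes called on silencing were 15 at day 0 and 8 at day 2. The replicate block gave 24 and 15, the slide block 23 and 15, the unadjusted t-test 25 and 14, no filter 9 and 1, and at day 2 only the arrays compared and the adjusted t-test gave 3 each. Leaving out each array in turn gave 1 to 2 Smad calls at day 0, 0 to 1 at day 2, 7 to 9 and 5 to 7 over the days in siControl and siBach1-2 cells, 10 to 17 listed genes at day 0 and 3 to 8 at day 2, and 0.28 to 0.43 for A_55_P2101001 at day 2, with 0.28 without siControl replicate 3 of day 2. The first slide alone, without replicate 3, gave 1 Smad call at day 0, 0 at day 2, and 0.25 for A_55_P2101001 at day 2 (adjusted p = 0.17). The 3 listed genes at day 2 were reached without siControl replicate 1, siBach1-2 replicate 1 or siBach1-2 replicate 2 of day 2, and 5 without replicate 3 of either siRNA at day 2. The replicate block changed no Smad call other than those given in the report.

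Values near 0 changed sign, and none of these passed the test on either side. With normexp the silencing effect was -0.01 for Smad1 A_51_P409260, 0.08 for Smad4 A_55_P2745195 and 0.04 for Smad4 A_55_P2745667 at day 0, and -0.07 for A_55_P2745667 and -0.01 for Smad7 A_55_P2741400 at day 2. The change of Smad6 over days in siControl cells was 0.07, and the differences between days were 0.00 for A_52_P611867, -0.03 for A_55_P2745195 and -0.10 for A_55_P2745667. With quantile normalization Smad1 gave -0.01 and 0.00 on silencing, 0.07 and 0.08 over days and 0.01 for the difference, Smad4 A_52_P611867 gave 0.05 and 0.08 over days and 0.03 for the difference, and A_55_P2745667 gave -0.09 at day 2. For A_55_P2745667 the replicate block gave 0.00 at day 0, and the deposited values 1.53 at day 0 and -1.53 for the difference, with the outlier spot in place.

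Leaving out each array in turn, Smad1 ranged from -0.04 to 0.08 on silencing at day 0 and from -0.08 to 0.04 over days in siControl cells. Smad2 A_66_P116808 ranged from -0.04 to 0.07 at day 0 and from 0.02 to 0.25 over days in siBach1-2 cells, and the Smad3 A_52_P352277 difference between days from -0.07 to 0.11. Smad4 ranged from -0.05 to 0.12 for the difference at A_55_P2112617. At A_55_P2745195 it ranged from -0.07 to 0.04 at day 0, 0.02 to 0.13 at day 2 and 0.04 to 0.16 for the difference, and at A_55_P2745667 from -0.21 to 0.17, -0.03 to 0.04 and -0.16 to 0.22. Smad6 ranged from -0.26 to 0.06 over days in siControl cells and from -0.35 to 0.08 for the difference. On the first slide alone Smad2 A_66_P116808 was at 0.10 at day 0 and -0.01 over days in siBach1-2 cells, and the Smad3 A_52_P352277 difference was -0.01. There Smad4 A_55_P2745195 gave 0.06, 0.00 and -0.06, and A_55_P2745667 gave 0.14 at day 0 and -0.11 for the difference. The Smad3 value minus the mean of the other Smads ranged from 0.13 to 0.34 at day 0 and 0.15 to 0.32 at day 2 without single arrays. Pairing the arrays by replicate number gave 0.24 and 0.21 with p = 0.25 in the exact sign flips. Signal over background limits Smad9, the dim Smad1 probe and Smad7 A_55_P2741400 at day 2. The causes of these changes were not tested.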
